A study of Mus musculus with 30 samples.

Results

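Storage of iron in ferritin and its release from the liver cell were followed through 7 of the 27962 gene names on the array: Fth1, Ftl1, Ftl2, Ncoa4, Slc40a1, Cp and Heph. They were read by 10 probes, which were all those of the 41174 gene probes whose name in the array files is 1 of these 7. Ncoa4 had 3 probes, Heph had 2 and each of the other genes had 1. Of the 10 probes, 9 passed a filter on low signal that kept 29986 probes of the array in all. The probe left out, Heph probe 2, was marked well above background on 0 of 30 arrays and was not tested.

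Liver RNA was measured on single-colour oligonucleotide arrays, with 1 mouse on each of 30 arrays. The mice were C57BL/6 (B6) or DBA/2 (D2), both inbred strains with no engineered allele named in the labels. They were fed a balanced diet with 200 mg of iron per kg, an enriched diet with 8.3 g per kg or a deficient diet with under 3 mg per kg. There were 5 mice in each of the 6 groups of strain and diet. For sex, age and length of feeding, the sources used here give nothing. The labels call the tissue liver. All 9 tested hepatocyte markers, among them the albumin gene Alb, were kept by the filter, with a mean log2 signal per mouse between 16.35 and 16.85.

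Ferritin is a hollow shell of heavy (Fth1) and light (Ftl1) chains in which cells keep iron in a form that does not react. NCOA4 is the receptor that carries ferritin to the lysosome, where the shell is broken down and its iron set free, a step called ferritinophagy. Ferroportin, the product of Slc40a1, is the exporter through which iron leaves hepatocytes and macrophages, and the multicopper ferroxidases ceruloplasmin (Cp) and hephaestin (Heph) oxidise the iron that leaves. Ferritin chains and ferroportin are also controlled when their mRNAs are translated and, for ferroportin, when hepcidin removes the protein, so RNA levels are only a part of their regulation.

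Averaged over the strains, the light-chain probes Ftl1 and Ftl2, Slc40a1 and Cp were higher in enriched than in balanced livers, 4 of 9 kept probes where 2.02% of all kept probes passed and 1.09% were higher. All 3 probes of Ncoa4 were lower in deficient than in balanced livers, where 7.34% of all kept probes passed and 3.65% were lower. The heavy chain Fth1 and Heph passed in neither comparison. Between the strains, where 50% of all kept probes passed, Ncoa4 and Heph were lower and Slc40a1 and Ftl1 higher in D2 than in B6 livers.

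A promoter table from RefSeq (build GRCm38.p6) lists 4 of the 7 genes, with 2 starts for Fth1, 1 for Ftl1, 3 for Ncoa4 and 2 for Cp. The table holds 250 bases before and 50 bases after each start. The 250 bases before the start of Ftl1 (chr7:45459887-45460136, minus strand) and before the downstream start of Fth1 (chr19:9982396-9982645, plus strand) are shown 5′ to 3′, because these 2 chains build the same shell and only the light chain's probe passed under the enriched diet. Capitals mark the CCAAT box, which here lies on the opposite strand and reads ATTGG.
Ftl1: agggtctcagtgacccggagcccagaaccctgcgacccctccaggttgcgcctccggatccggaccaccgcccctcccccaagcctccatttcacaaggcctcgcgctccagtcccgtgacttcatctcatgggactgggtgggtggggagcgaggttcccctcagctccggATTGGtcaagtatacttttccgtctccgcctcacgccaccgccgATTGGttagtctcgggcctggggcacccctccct
Fth1: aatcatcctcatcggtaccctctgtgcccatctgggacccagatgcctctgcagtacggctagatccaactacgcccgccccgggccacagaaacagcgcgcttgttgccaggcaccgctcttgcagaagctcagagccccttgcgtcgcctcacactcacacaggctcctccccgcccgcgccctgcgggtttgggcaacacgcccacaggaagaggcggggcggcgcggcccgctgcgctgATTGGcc
CCAAT was searched on both strands of the 300 bases, TATAA on the strand of the gene and TGACNNNGC, the core of the antioxidant response element bound by NRF2, on both strands. None of these overlapped another in the 2 windows shown. Ftl1 holds CCAAT at 78 and at 34 bases before the start, and Fth1 holds it at 7 bases before. TATAA lies 18 bases after the annotated start of Ftl1 and 27 bases after that of Fth1, outside the stretch printed. Of all 32851 promoters in the table, 37.4% hold CCAAT, 17.5% TATAA and 12.4% TGACNNNGC in a window of this length. The most downstream start of Ncoa4 had TGACNNNGC at 44 and TATAA at 27 bases before it, and the downstream start of Cp had CCAAT at 118 and TATAA at 25 bases before it. The G and C content of the 250 bases was 65.2% for Ftl1, 66.8% for this Fth1 start and 39.2% for this Cp start. A match is a description of letters only.

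Signals are log2 values after quantile normalization, which gives every array the same spread of values. A difference of 1 on this scale is a doubling. Unless another setting is named, tests come from 1 limma fit to the 30 arrays. They use Benjamini-Hochberg adjustment over the 29986 kept probes and a threshold of 0.05. Every error of a difference is limma's standard error (SE). The setting called the methods' t-test is an ordinary t-test, adjusted in the same way, on the arrays of the compared groups alone. The share of probes well above background was 62.5% to 78.4% on an array, and the number of arrays limits the precision. None of the 10 probes was saturated on any array. The arrays fell on 10 slides and 3 scan days, unevenly over the groups: scan day 3 held only 1 D2 balanced array, that of mouse 5, and scan day 2 only 1 array each of the B6 balanced, the B6 enriched and the D2 enriched group. D2 balanced mouse 5 stood apart in several members, and values without it are given beside several of the D2 and strain results that it moved. The mice of a group are numbered only to name them.

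**Figure D1:**
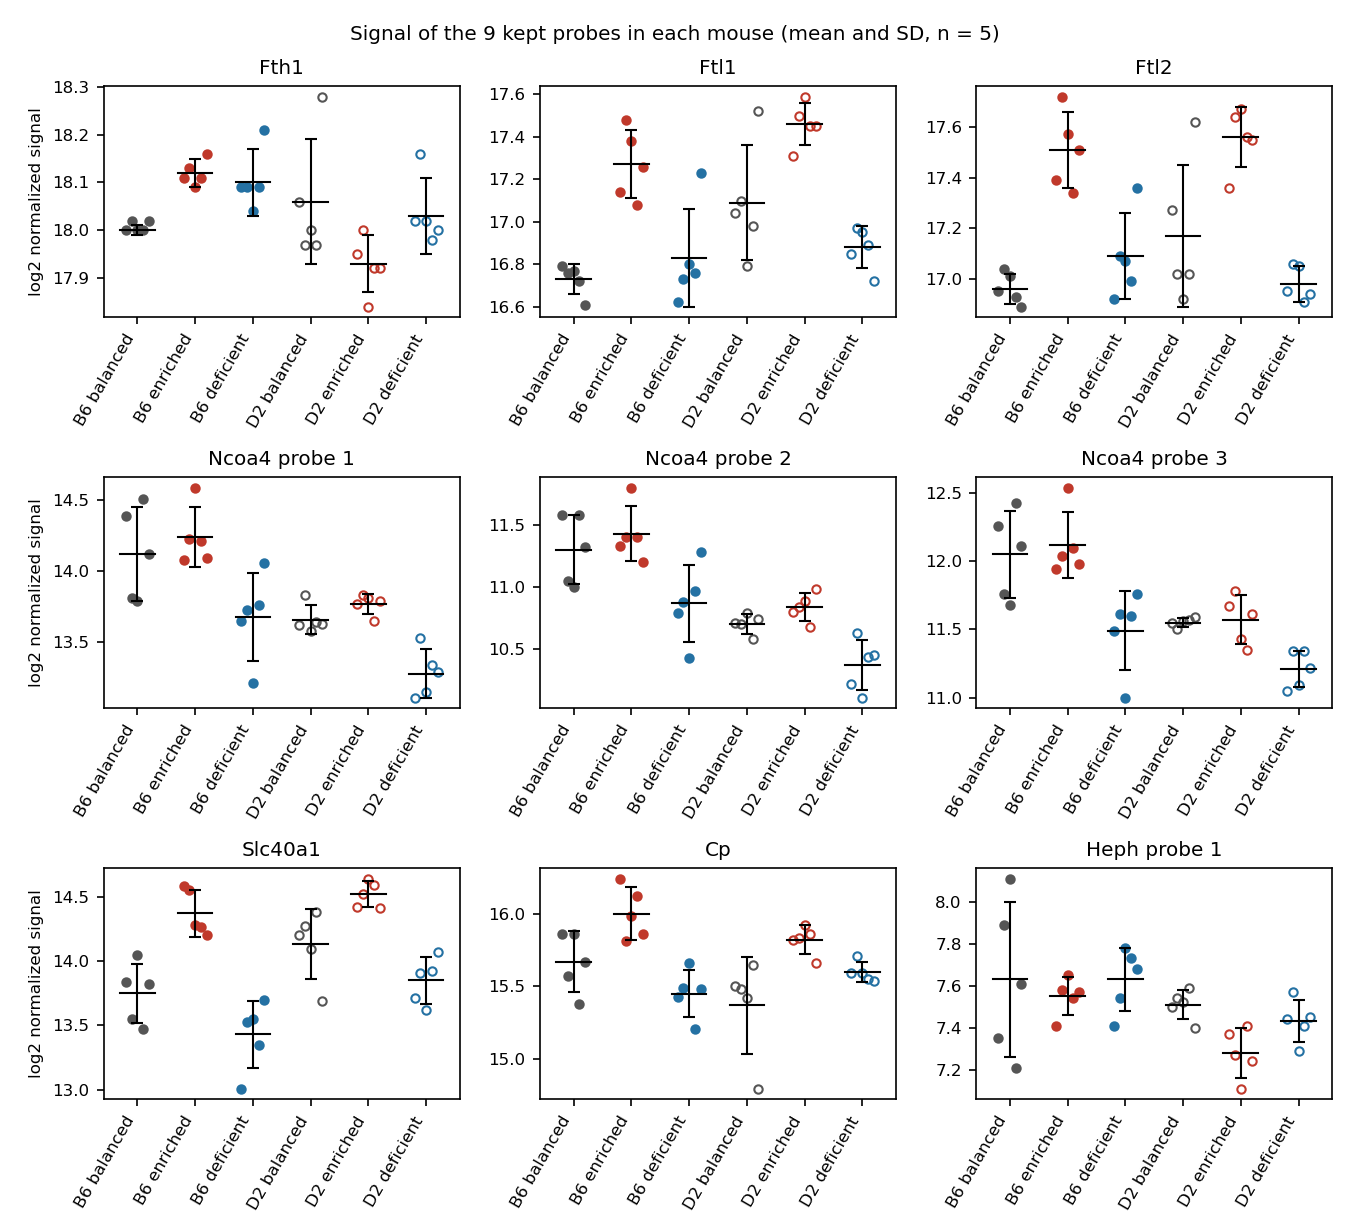
Log2 normalized signal (vertical axes, each panel with its own range) of the 9 kept probes in every mouse, by strain and diet; filled points are B6 and open points D2, and lines give the mean and SD of 5 mice. The enriched groups stand high in Ftl1, Ftl2, Slc40a1 and Cp, the deficient groups stand low in the 3 Ncoa4 probes, and Fth1 spans only 17.84 to 18.28.

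Ftl1 encodes the light chain of the ferritin shell. In B6 balanced mice its log2 signal was 16.79, 16.76, 16.77, 16.72 and 16.61, and in B6 enriched mice 17.14, 17.48, 17.38, 17.08 and 17.26. All enriched B6 mice were above all balanced ones. In D2 the balanced mice were at 17.04, 17.10, 16.79, 16.98 and 17.52 and the enriched mice at 17.31, 17.50, 17.59, 17.45 and 17.45. The D2 groups overlapped through the balanced mouse 5, at 17.52, since the other balanced mice were all below the enriched ones. Deficient mice were at 16.62, 16.73, 16.80, 16.76 and 17.23 in B6 and at 16.85, 16.97, 16.95, 16.89 and 16.72 in D2. Both deficient groups overlapped their balanced groups, and B6 deficient mouse 5 stood above the other deficient mice.

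Averaged over the strains, Ftl1 rose by 0.46 (SE 0.0781) in enriched against balanced livers, a 1.37-fold change with a 95% interval of 1.23 to 1.53 and an adjusted p of 0.00108. The difference was 0.54 (SE 0.11, adjusted p = 0.00328) in B6 and 0.37 (SE 0.11, adjusted p = 0.456) in D2. The test of the difference between these strain effects gave -0.16 (SE 0.156, adjusted p = 0.78), with an interval of -0.48 to 0.16. Without D2 balanced mouse 5 the D2 difference was 0.48 (SE 0.1, adjusted p = 0.0653) and that between the strains -0.05 (SE 0.137, adjusted p = 0.956). Under the deficient diet the averaged difference was -0.06, with an interval of -0.22 to 0.11. Within scan day 2 the averaged enriched difference was 0.65 (adjusted p = 0.455) and within scan day 3 it was 0.20 (adjusted p = 0.21), where mouse 5 was the only D2 balanced array. With scan day as a block it was 0.47 (adjusted p = 0.00141).

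The Ftl2 probe is named for a second light-chain gene. Its accession matched no transcript in the RefSeq table of build GRCm38.p6, which lists Ftl2 as a synonym of a light-chain pseudogene. The Ftl1 and Ftl2 probes may therefore read the same transcripts, cross-hybridisation was not measured, and they are not counted here as independent genes. Ftl2 ran from 16.89 to 17.04 in B6 balanced and from 17.34 to 17.72 in B6 enriched mice, which did not overlap. The D2 enriched mice, at 17.36 to 17.67, overlapped the D2 balanced ones, at 16.92 to 17.62, again through mouse 5. The Ftl2 difference was 0.46 (SE 0.0728, adjusted p = 0.000406) averaged over the strains, 0.54 (SE 0.103) in B6 and 0.38 (SE 0.103, adjusted p = 0.319) in D2. Without D2 balanced mouse 5 the D2 difference was 0.50 (SE 0.0885) and passed with an adjusted p of 0.0184, and with cyclic loess it was 0.45 (adjusted p = 0.023). Within scan day 2 the averaged difference was 0.68 (adjusted p = 0.368) and within scan day 3 it was 0.19 (adjusted p = 0.251). Over the 30 arrays, after each strain's mean was subtracted, Ftl1 and Ftl2 correlated at r = 0.975.

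The heavy chain Fth1 carries the ferroxidase centre of ferritin. In B6 balanced mice its log2 signal was 18.00, 18.02, 18.00, 18.00 and 18.02, in B6 enriched mice 18.11, 18.13, 18.09, 18.11 and 18.16, and in B6 deficient mice 18.09, 18.09, 18.04, 18.09 and 18.21. In D2 the balanced mice were at 18.06, 17.97, 18.00, 17.97 and 18.28, the enriched mice at 17.95, 18.00, 17.84, 17.92 and 17.92, and the deficient mice at 18.02, 18.16, 18.02, 17.98 and 18.00. The B6 balanced mice were the lowest of that strain, with no overlap with either other diet, while the D2 enriched mice were the lowest group of all and overlapped the D2 balanced and deficient mice.

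Fth1 was among the brightest probes of the array, between rank 13 and rank 34 on every array, and quantile normalization sets a value by rank, so its values are coarse and many are repeated. Averaged over the strains its difference was -0.01 (SE 0.0403) for the enriched diet, with an interval of -0.09 to 0.08, and 0.04 (SE 0.0403) for the deficient diet, with an interval of -0.05 to 0.12. The enriched interval excludes for this probe a rise as large as the 0.46 of Ftl1. In B6 the enriched difference was 0.12 (adjusted p = 0.293, or 0.011 by the methods' t-test) and in D2 it was -0.13 (adjusted p = 0.88), and the test between the strains gave -0.25 (SE 0.0807, adjusted p = 0.162). Without D2 balanced mouse 5 these last 2 values were -0.07 and -0.19 (adjusted p = 0.238). With each array scaled to its 75th percentile, which does not set values by rank, B6 balanced mice ran from 17.99 to 18.16 and B6 enriched mice from 18.06 to 18.14, so the groups overlapped, as did the B6 deficient mice at 17.88 to 18.20. The strain test was then -0.15 (adjusted p = 0.637), and the averaged differences were -0.06 for the enriched and -0.07 for the deficient diet. Fth1 and Ftl1 correlated at r = 0.188 over the 30 arrays after each strain's mean was subtracted, against 0.975 for the light-chain pair.

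**Figure D2:**
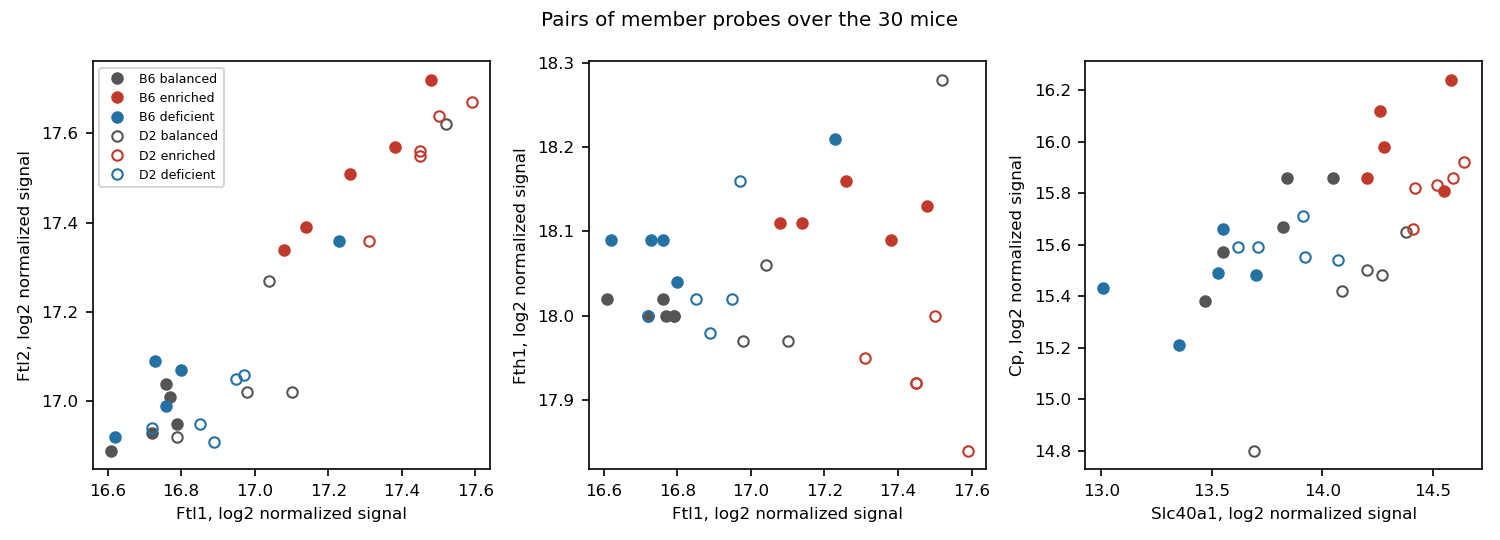
Log2 normalized signal of 1 probe against another in the 30 mice, filled for B6 and open for D2, with diets by colour. Ftl1 and Ftl2 lie on a line (r = 0.975 after each strain's mean was subtracted), Ftl1 and Fth1 do not (r = 0.188), and Slc40a1 and Cp rise together (r = 0.771), with D2 balanced mouse 5 lowest in Cp at 14.80.

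Ncoa4 is the cargo receptor of ferritinophagy. At probe 1, the brightest of its 3 probes, B6 balanced mice were at 14.39, 13.81, 13.79, 14.51 and 14.12, B6 enriched mice at 14.08, 14.23, 14.59, 14.21 and 14.09, and B6 deficient mice at 13.65, 13.73, 13.21, 13.76 and 14.06. The deficient B6 mice were below all enriched mice and overlapped the balanced mice. In D2 the balanced mice were at 13.62, 13.83, 13.58, 13.64 and 13.63, the enriched mice at 13.77, 13.83, 13.81, 13.65 and 13.79, and the deficient mice at 13.11, 13.53, 13.15, 13.34 and 13.29. All deficient D2 mice were below all mice on the other diets. D2 balanced mouse 2 was the highest of its group at probe 1 only. At probe 2 it was at 10.70 in a group of 10.58 to 10.79, and at probe 3 it was the lowest, at 11.50 in a group reaching 11.59. It had the highest mean of the 5 erythroid markers read here (Alas2, Hba-a1, Hbb-b1, Slc4a1 and Rhag), 12.94 against 10.92 to 11.28 in the other D2 balanced mice. This mean ran from 10.87 to 11.37 in B6 balanced, 10.45 to 11.20 in B6 deficient and 10.86 to 11.36 in D2 deficient mice. Of the 5 markers, Alas2, the haem synthesis enzyme of red cell precursors, was lower in deficient than in balanced livers, at -0.62 (adjusted p = 0.00204) averaged over the strains and -0.79 (adjusted p = 0.0155) in B6, and the other 4 passed in neither. In the averaged comparison 7.34% of all kept probes passed. There 3 of 9 sinusoidal endothelial markers were higher (Pecam1, Kdr and Emcn) and 1 lower (Oit3), and 2 of 7 stellate cell markers were higher (Dcn and Reln). The part of these cell types in the Ncoa4 result was not tested.

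Ncoa4 fell in deficient against balanced livers at every probe. The averaged differences were -0.41 for probe 1 (SE 0.0968, adjusted p = 0.00917), -0.39 for probe 2 (SE 0.096, adjusted p = 0.0131) and -0.45 for probe 3 (SE 0.0985, adjusted p = 0.00506), which are 0.753, 0.766 and 0.732 times the balanced level. The 3 probes read 1 gene and are not replicates. Leaving out any 1 array, that of D2 balanced mouse 2 included, kept all 3 past the threshold, with adjusted p values up to 0.0199, 0.0288 and 0.0116. Within scan day 2 the differences were -0.54, -0.49 and -0.53 and within scan day 3 -0.47, -0.53 and -0.54, with adjusted p values from 0.0602 to 0.372. In B6 alone only probe 3 passed, at -0.55 (SE 0.139, adjusted p = 0.0394), where 1.44% of all kept probes did. It missed the threshold when the array of B6 balanced mouse 1, 4 or 5 or of B6 deficient mouse 1, 2, 3 or 4 was left out, with adjusted p values from 0.0538 (deficient mouse 2) to 0.141 (deficient mouse 3), and with 8 other settings. Without B6 deficient mouse 5, probe 2 passed too (adjusted p = 0.0488). The D2 differences were -0.38, -0.33 and -0.35, with adjusted p values of 0.126, 0.182 and 0.179, or 0.0425 for probe 3 by the methods' t-test. Under the enriched diet the averaged differences were 0.11, 0.13 and 0.04, and the interval for probe 1 ran from -0.08 to 0.31. In the liver RNA as a whole, fewer cells of a type and less RNA per cell cannot be told apart, here and in the results that follow.

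Slc40a1 encodes ferroportin. Its log2 signal in B6 balanced mice was 13.84, 13.55, 14.05, 13.47 and 13.82, in B6 enriched mice 14.58, 14.55, 14.28, 14.26 and 14.20 and in B6 deficient mice 13.01, 13.53, 13.55, 13.35 and 13.70. The enriched mice were above all other B6 mice, and the deficient mice overlapped the balanced ones. In D2 the balanced mice were at 14.20, 14.27, 14.09, 14.38 and 13.69, the enriched mice at 14.42, 14.52, 14.64, 14.59 and 14.41 and the deficient mice at 13.71, 13.91, 13.62, 13.92 and 14.07. The D2 enriched mice were above all balanced mice, and the deficient mice were below every balanced mouse except mouse 5. The group means fell from D2 enriched (14.52) through B6 enriched (14.37), D2 balanced (14.13), D2 deficient (13.85) and B6 balanced (13.75) to B6 deficient (13.43). The mice of each group in this order overlapped those of the next.

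Slc40a1 rose by 0.51 (SE 0.0941) in enriched against balanced livers, 1.42-fold with a 95% interval of 1.24 to 1.62 and an adjusted p of 0.00253. It rose by 0.62 (SE 0.133, adjusted p = 0.00448, or 0.065 by the methods' t-test) in B6, and the D2 difference was 0.39 (SE 0.133, adjusted p = 0.632). Without D2 balanced mouse 5 the averaged rise was 0.45 (adjusted p = 0.00489) and the D2 difference 0.28 (SE 0.128). Averaged over the strains, the enriched difference was 0.58 (adjusted p = 0.367) within scan day 2, 0.75 (adjusted p = 0.0154) within scan day 3 and 0.56 (adjusted p = 5.84e-05) with scan day as a block. In deficient against balanced livers the averaged difference was -0.30 (SE 0.0941, adjusted p = 0.0502), just short of the threshold. It passed at -0.30 (adjusted p = 0.0114) with scan day as a block, at -0.37 (adjusted p = 0.0135) with 75th percentile scaling, at -0.31 (adjusted p = 0.035) with cyclic loess and at -0.30 (adjusted p = 0.047) with 1 probe per gene. It also passed without D2 balanced mouse 5 (-0.35, adjusted p = 0.015), B6 balanced mouse 2 (0.0436) or 4 (0.0321), B6 deficient mouse 5 (0.032) or D2 deficient mouse 5 (0.0381). Over all arrays left out in turn its adjusted p ran from 0.015 to 0.0979. Within scan days 2 and 3 the deficient differences were -0.25 (adjusted p = 0.407) and -0.18 (adjusted p = 0.467).

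Macrophages of the liver, the Kupffer cells, also carry ferroportin. Of 14 Kupffer cell and macrophage markers, all were kept by the filter. In enriched or deficient against balanced livers 0 of them passed, where 2.02% and 7.34% of all kept probes did. Their median differences were 0.06 and 0.10, beside 0.009 and 0.007 for all kept probes. The mean log2 signal of the 14 markers ran from 11.37 to 12.34 in B6 balanced, 11.66 to 11.88 in B6 enriched, 11.68 to 12.04 in B6 deficient, 10.91 to 11.22 in D2 balanced, 11.21 to 11.42 in D2 enriched and 11.02 to 11.41 in D2 deficient mice. Their part in the Slc40a1 result was not tested.

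Cp encodes ceruloplasmin, a ferroxidase that hepatocytes secrete into the blood. Its log2 signal was 15.86, 15.57, 15.86, 15.38 and 15.67 in B6 balanced mice, 16.24, 15.81, 15.98, 16.12 and 15.86 in B6 enriched mice and 15.43, 15.49, 15.66, 15.21 and 15.48 in B6 deficient mice. The enriched B6 mice were above all deficient mice and overlapped the balanced ones. In D2 it was 15.50, 15.48, 15.42, 15.65 and 14.80 in balanced mice, 15.82, 15.83, 15.92, 15.86 and 15.66 in enriched mice and 15.59, 15.71, 15.59, 15.55 and 15.54 in deficient mice. The D2 enriched mice were all above the balanced mice, by the narrow margin of 15.66 against 15.65, and mouse 5 was far below the other balanced mice.

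Cp rose by 0.39 (SE 0.0859) in enriched against balanced livers, 1.31-fold with an interval of 1.16 to 1.48 and an adjusted p of 0.0117. The difference was 0.34 (SE 0.122, adjusted p = 0.114) in B6 and 0.45 (SE 0.122, adjusted p = 0.324) in D2, with a strain test of 0.11 (adjusted p = 0.888). Without D2 balanced mouse 5 the D2 difference was 0.31 (adjusted p = 0.746) and the strain test -0.03 (adjusted p = 0.98). The B6 difference passed without D2 balanced mouse 5, whose array enters the shared spread (adjusted p = 0.0313), and with slide as a block (adjusted p = 0.0463). In B6 it was -0.04 (adjusted p = 1) within scan day 2 and 0.51 (adjusted p = 0.0472) within scan day 3. Without normalization between arrays the averaged difference was 0.30 (adjusted p = 0.0987). With normalization it was 0.21 within scan day 2 and 0.77 within scan day 3, where mouse 5 was the only D2 balanced array. Without that mouse, over all scan days, it was 0.32 (adjusted p = 0.0113). Under the deficient diet the averaged difference was 0.01, with an interval of -0.17 to 0.18. Ceruloplasmin is an acute phase protein, so the acute phase genes are given beside it. Of 20 tested, 0 rose and 1 fell under the enriched diet averaged over the strains (Mbl1, a mannose-binding lectin, by 0.25 with an adjusted p of 0.0379). Of all kept probes 2.02% passed there. In B6 alone 1 rose and 2 fell under this diet, where 5.34% of all kept probes passed. In D2 alone 0 passed, where 0.0867% of all did. Under the deficient diet averaged over the strains 1 rose (Itih4, by 0.25) and 4 fell, which were the serum amyloid A genes Saa1, Saa2, Saa3 and Saa4 at -0.59, -0.74, -0.77 and -0.70. Of all kept probes 7.34% passed in this comparison and 3.65% were lower. In B6 alone 0 passed under this diet, where 1.44% of all kept probes did. In D2 alone 3 rose and 0 fell, where 4.16% of all passed. Between the strains, where 50% of all kept probes passed, 16 of the 20 were higher and 1 lower in D2. Cp stood at -0.11 (adjusted p = 0.191) in that comparison.

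Hephaestin is best known from the enterocyte, where it works beside ferroportin. Heph probe 1 was dim, though marked well above background on all 30 arrays, and ran from 7.11 to 8.11. Its enriched difference was -0.16 (SE 0.0818, adjusted p = 0.419), with an interval of -0.33 to 0.01, and its deficient difference was -0.04, with an interval of -0.21 to 0.13. Every diet pair of groups overlapped at this probe. Of 8 enterocyte markers 4 were tested, Vil1, Fabp2, Apoa4 and Slc5a1. Cdx1, Cdx2 and Lct were not kept by the filter, and Sis was not among the names on the array. The mean of the 4 tested ran from 9.17 to 10.30 over all mice.

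Counted together, 4 of 9 kept probes were higher and 0 lower in enriched against balanced livers averaged over the strains. The members' median difference was 0.13, beside 0.009 for all kept probes. In B6 alone 3 of 9 passed (Ftl1, Ftl2 and Slc40a1), where 5.34% of all probes did. In D2 alone 0 of 9 passed limma's test, where 0.0867% of all probes did, and 5 of 9 had an unadjusted p under 0.05, as did 5.24% of all. Of these, Ftl1, Ftl2, Slc40a1 and Cp were higher, and Fth1 was lower, at -0.13. In deficient against balanced livers 3 of 9 were lower and 0 higher. The median of the 9 was -0.06, beside 0.007 for all. Within B6 1 of 9 passed, and within D2 0 of 9 passed limma's test, where 4.16% did and 4 of the 9 had an unadjusted p under 0.05, as did 17.3% of all. The 9 probes read 7 genes or fewer, so these counts are not of independent genes. Both comparisons use the same balanced mice.

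Groups that did not overlap were also counted. In B6, 4 of 9 probes had all enriched above all balanced mice (Fth1, Ftl1, Ftl2 and Slc40a1), where 3.01% of all kept probes did. In D2 this held for Slc40a1 and Cp, where it held for 0.714% of all probes. All D2 deficient mice lay below all balanced mice at Ncoa4 probes 1 and 3, where 3.58% of all probes did so, and in B6 this held for 0 of 9 members, where it held for 1.01%. All B6 deficient mice lay above all balanced mice at Fth1, where 1.53% of all probes did so. Neither Fth1 separation in B6 held with 75th percentile scaling.

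**Figure D3:**
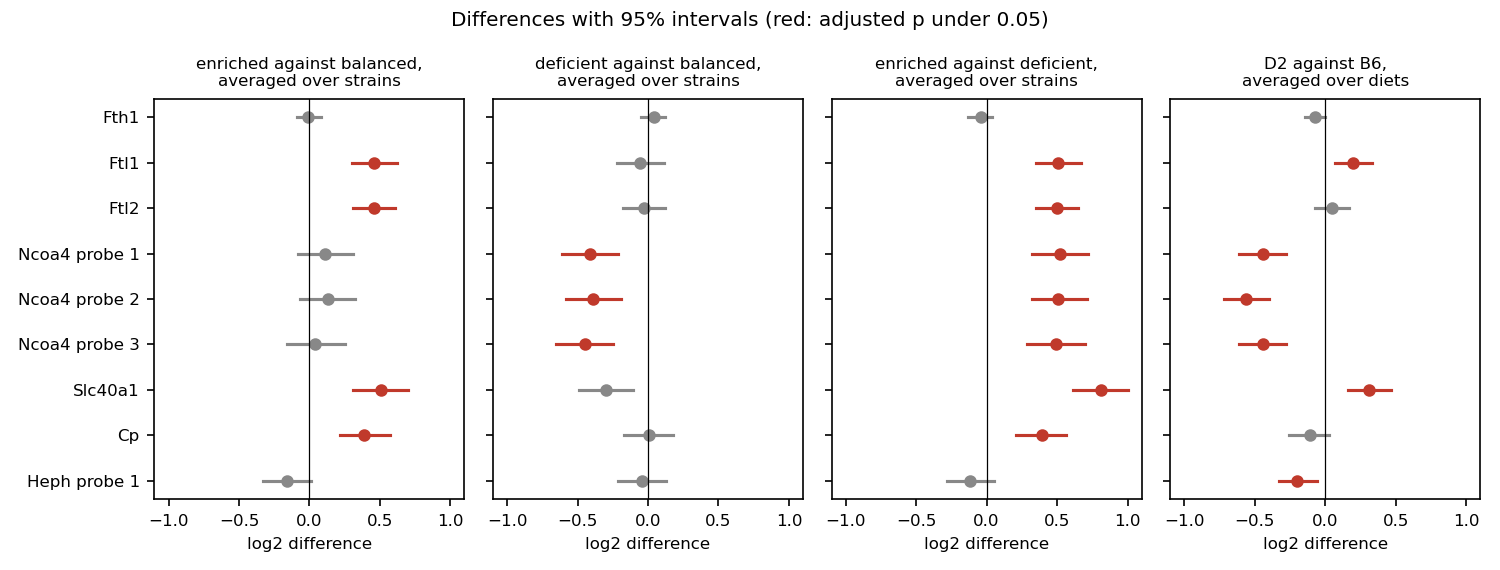
Log2 differences with 95% intervals of the 9 kept probes in 3 diet comparisons averaged over the strains and in D2 against B6 averaged over the diets, red where the adjusted p was under 0.05. The enriched diet moved Ftl1, Ftl2, Slc40a1 and Cp, the deficient diet moved the 3 Ncoa4 probes, and all 7 of these differed between the enriched and the deficient diet.

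The enriched and the deficient diet set against each other span the widest range of dietary iron, and this comparison shares its mice with both others. Of the 9 probes, 7 were higher in enriched livers and 0 lower, where 8.25% of all kept probes passed and 4.24% were higher. Slc40a1 differed by 0.81 (SE 0.0941, adjusted p = 1.67e-06), which is 1.75-fold. Ftl1 differed by 0.51 (SE 0.0781, adjusted p = 7.65e-05), Ftl2 by 0.50, the Ncoa4 probes by 0.52, 0.51 and 0.49, and Cp by 0.39 (SE 0.0859, adjusted p = 0.00428, or 0.08 with slide as a block). Fth1 was at -0.04, with an interval of -0.13 to 0.04, and Heph probe 1 at -0.12. The enriched mice were all above the deficient mice at Slc40a1 and at Ncoa4 probe 1 and probe 3 in both strains. The same held for Cp in B6 and for Ftl1, Ftl2 and Ncoa4 probe 2 in D2. In all that made 4 of 9 probes in B6, where 2.8% of all kept probes did so, and 6 of 9 in D2, where 3.33% did. Within scan day 2 the Slc40a1 difference was 0.83 (adjusted p = 0.0624) and within scan day 3 it was 0.93 (adjusted p = 0.00818).

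The strains differed at 6 of 9 probes averaged over the diets, and a share near the 50% of all kept probes is no result about these members. Ncoa4 was lower in D2 at its 3 probes, at -0.44 for probe 1 (SE 0.079, adjusted p = 3.13e-05), -0.56 for probe 2 (SE 0.0784, adjusted p = 8.4e-07) and -0.44 for probe 3 (SE 0.0805, adjusted p = 3.97e-05). Slc40a1 was higher in D2 by 0.31 (SE 0.0768, adjusted p = 0.00117). In the same livers 13 of 14 Kupffer cell and macrophage markers were lower in D2 and 0 higher, with a median of -0.51, among them Clec4f at -0.71 and Adgre1 at -0.94, and their part in the Slc40a1 difference was not tested. Other cell types were read too, beside the 50% of all kept probes that passed. Of 9 hepatocyte markers 5 were lower and 2 higher in D2, with a median of -0.38, and their mean ran from 16.66 to 16.85 in B6 and from 16.35 to 16.64 in D2 mice, without overlap. All 9 sinusoidal endothelial markers were lower in D2, with a median of -0.26, as were 3 of 5 cholangiocyte markers, with a median of -0.52 over the 5. The cholangiocyte share is near that of all kept probes. Of 7 stellate cell markers 1 was higher and 1 lower in D2, and of 5 erythroid markers 1 was higher and 0 lower. Their part in the members' strain differences was not tested either. Ftl1 was higher in D2 by 0.20 (SE 0.0638, adjusted p = 0.0103), while Ftl2 was at 0.05 (adjusted p = 0.505). Without normalization between arrays, which moved the median of all probes in this comparison by over 0.1, Ftl1 was at 0.15 and missed the threshold (adjusted p = 0.0716), Cp was at -0.19 and passed (adjusted p = 0.029), and the split was 1 higher and 5 lower in place of 2 higher and 4 lower. Heph probe 1 was lower, at -0.20 (SE 0.0668, adjusted p = 0.0158). Fth1 was at -0.07 (SE 0.0329, adjusted p = 0.0843) and passed at -0.09 (adjusted p = 0.0103) without D2 balanced mouse 5 and at -0.08 (adjusted p = 0.043) without D2 deficient mouse 2. Within scan day 2 Slc40a1 was at 0.30 (adjusted p = 0.052) and within scan day 3 at 0.20 (adjusted p = 0.162). Ncoa4 probe 1 was at -0.50 and -0.51 in these days, and Ftl1 at 0.06 and 0.41. Within scan day 3 Ftl2 was at 0.24, Cp at -0.28 and Heph probe 1 at -0.17. The only D2 balanced array of that day was that of mouse 5. Without it, over all scan days, Ftl1 was at 0.16 (adjusted p = 0.0154) and Ftl2 at 0.01 (adjusted p = 0.837). Cp was then at -0.07 (adjusted p = 0.343). A strain difference in hybridisation at a probe, as a sequence variant can give, cannot be told apart here from one in RNA level.

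The difference between the strains in a diet effect was tested for the enriched, the deficient and the enriched against deficient comparisons. In limma's tests 0 of 9 probes passed in each, where 0.887%, 0.02% and 0.387% of all kept probes did, and 1, 2 and 0 of the 9 had an unadjusted p under 0.05, as did 11.5%, 6.73% and 9.79% of all. These were Fth1 for the enriched diet and Ftl2 and Cp for the deficient diet. For Cp the deficient difference was -0.21 (SE 0.122) in B6 and 0.22 (SE 0.122) in D2, and their difference was 0.44 (SE 0.172, adjusted p = 0.661). Without D2 balanced mouse 5 the D2 value was 0.08 (SE 0.1) and the strain difference 0.30 (SE 0.137, adjusted p = 0.738). For Ftl2 the strain difference was -0.31 (SE 0.146, adjusted p = 0.731), or -0.20 (adjusted p = 0.813) without that mouse. The intervals were wide: for Slc40a1 under the enriched diet the strain difference of -0.24 had an interval of -0.62 to 0.15, and it was -0.35 (adjusted p = 0.482) without the same mouse.

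Other genes of iron uptake, transport and sensing were read from a list of 34, of which 32 were tested. In enriched against balanced livers 3 rose and 2 fell, with a median of 0.04, where 2.02% of all kept probes passed. Tfrc, the transferrin receptor, fell by 1.48 and Slc11a2, the iron importer DMT1, by 0.54, with 1 of its other 2 probes falling too. Hamp2, of the hepcidin genes, rose by 2.20, Mcoln1, a lysosomal cation channel, by 0.28 at 1 of its 2 probes, and Hfe, an iron sensor of the hepatocyte, by 0.23, with its other probe rising too. Hamp, the other hepcidin gene, was not past the threshold here. Its mean was 15.97 in balanced and 17.73 in enriched B6 mice, and 15.25 and 17.29 in D2 mice. The shared spread of the fit includes the deficient mice, with Hamp means of 5.38 in B6 and 5.24 in D2. The part of those mice in this missed threshold was not tested. In deficient against balanced livers 3 rose and 4 fell, with a median of 0.01, where 7.34% of all kept probes passed. Tfrc rose by 2.51 and Slc11a2 by 0.55 at 1 of its 3 probes, while the hepcidin genes Hamp and Hamp2 were lower, Hamp2 at -7.18. Hamp and Hamp2 are near-identical, and their separate levels are uncertain. Slc46a1, a folate and haem transporter, fell by 0.26 and Steap3, a ferrireductase, by 0.31 at 1 of its 2 probes. Of the mice on the deficient diet, all had Hamp well above background in B6 and 3 of 5 in D2. The Hamp difference is therefore given for B6 alone, at -10.59 (adjusted p = 1.59e-08).

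Ferritin and ferroportin genes are also known targets of the oxidative stress factor NRF2, so a list of 21 such targets was read beside them. Of 20 tested, 8 rose and 0 fell under the enriched diet, with a median of 0.28, where 2.02% of all kept probes passed. Among the 8 were Akr1b8 at 1.47, Gsta2 at 1.11 and Abcc4 at 0.75. In B6 9 of the 20 rose, with a median of 0.59, where 5.34% of all kept probes passed. In D2 1 rose, with a median of 0.16, where only 0.0867% of all passed. The difference between the strains in this effect passed for 4 of 20, all lower in D2, with a median of -0.27 over the 20. Of all kept probes 0.887% passed in that test. Under the deficient diet 2 rose and 0 fell, with a median of 0.05, where 7.34% of all kept probes passed. In the same 2 comparisons Ftl1 stood at 0.46 and -0.06, Slc40a1 at 0.51 and -0.30, and Fth1 at -0.01 and 0.04. Whether the list and the members move for the same reason was not tested.

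The genes most like each member were found over the 30 arrays by Pearson's r after each strain's mean was subtracted, a measure that diet, scan day and the shared normalization can all raise. For Slc40a1 they were Cryl1 (0.878), Bmp6 (0.876) and Akr1b3 (0.871). For Ftl1 they were Il17rc (0.834), Setd6 (0.826) and Id1 (0.825), and for Ftl2 the same 3 genes stood first. Bmp6, the ligand that drives hepcidin expression, and Id1, a target of its signalling, are title genes of the study. For Ncoa4 probe 1 they were Adarb1 (0.863), Mpv17l (0.798) and Kcnn2 (0.796), and for Cp they were Ap1ar (0.805), Cops2 (0.790) and Col18a1 (0.775). Fth1 had lower values, led by Por (0.686), Rpp40 (0.685) and Chchd6 (0.680), and Heph was led by Dbn1 (0.754), Arhgef17 (0.743) and Nnt (0.740). Among the members, Slc40a1 and Cp correlated at 0.771 and the Ncoa4 probes among themselves at 0.937 to 0.970.

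**Figure D4:**
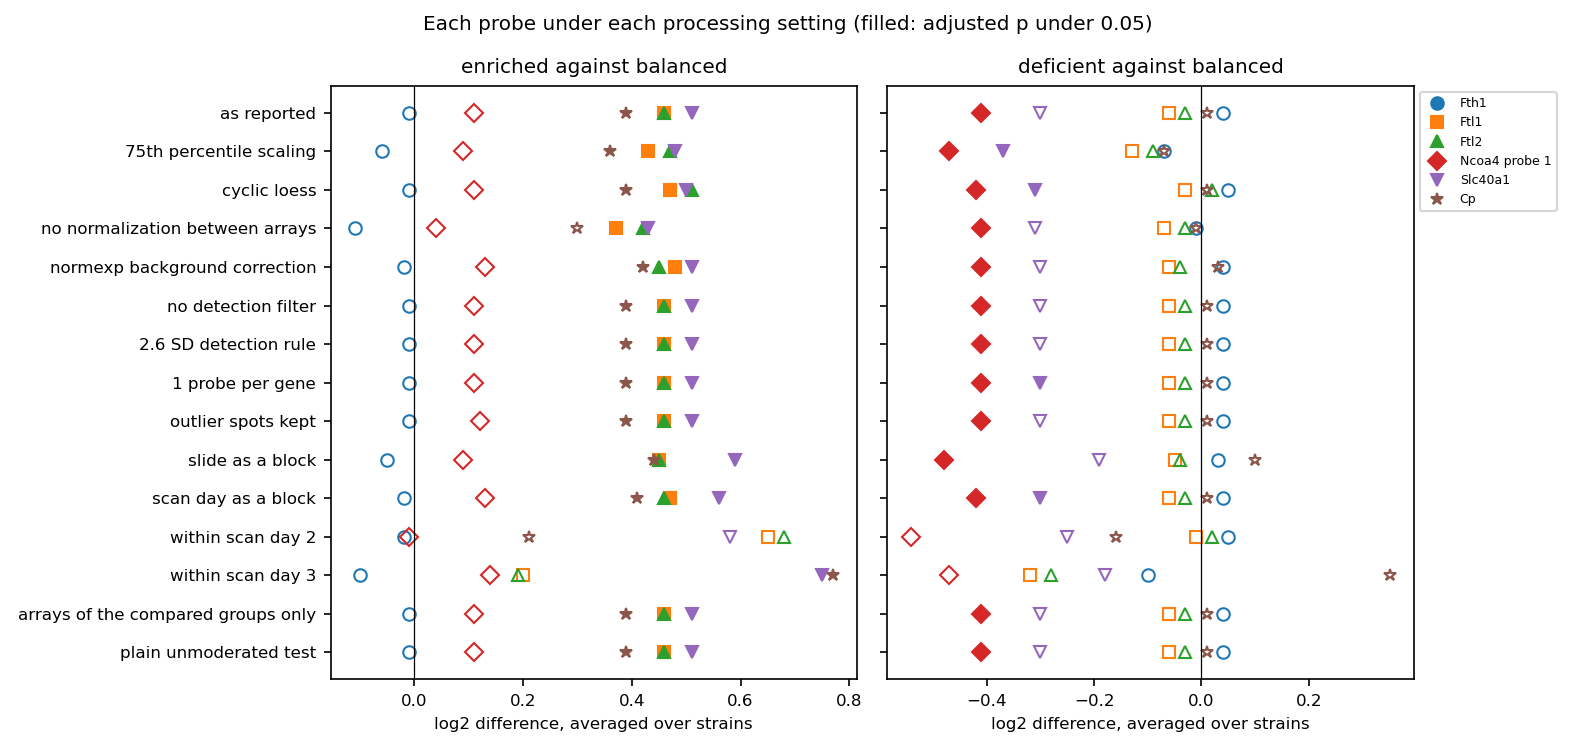
Log2 difference averaged over the strains (horizontal axes) of 6 probes under each processing setting (vertical axis), for the enriched diet on the left and the deficient diet on the right, filled where the adjusted p was under 0.05. Ftl1, Ftl2 and Slc40a1 stayed above 0 under the enriched diet in every setting shown and Ncoa4 probe 1 below 0 under the deficient diet, and the points of these 4 that did not pass all lay within single scan days. Slc40a1 under the deficient diet lay on either side of the threshold.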

How the data were processed

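The deposited array files hold fluorescence intensity on a linear scale, 1 colour and 1 mouse per array. Per the file headers, Agilent Feature Extraction 9.1.3.1 read the spots (the labels name 9.5.1), and the processed signal was background-subtracted with no normalization between arrays. The deposited value table equals that signal, with a largest difference of 0, and is not centred, with column medians from 58.9 to 117.

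Here control spots and outlier-marked spots were dropped, repeat spots of a probe were averaged, and signals were quantile normalized (as the design text says the authors did), raised to a floor of 13.93 and log2 transformed. Probes marked well above background on at least 3 B6 and 3 D2 arrays, with at least 3 values per group, were kept. All 30 arrays entered 1 limma fit of 6 group means (limma 3.58.1, R 4.3.3; tables with Python 3.11.15), which was also tested on simulated data. The authors' permutation analysis of variance was not run. Members are probes, and a gene with several probes is represented by its brightest kept one in lists, likeness and marker levels. Names follow RefSeq GRCm38.p6 where they matched (22951 probes by accession, 6659 by symbol), and 11564 keep the file's name.

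Members and lists were chosen with earlier results of these data known. Of the partner list, genes past the threshold in an averaged diet comparison are named, at most 6 per comparison by smallest adjusted p. The 3 most alike genes are named per member.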

Additional observations from a re-analysis of the deposited data

Results flagged for a closer look

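In 54 groups of 5 mice (9 kept probes in 6 groups), Dixon's gap test set a mouse apart in 7 cases. Some cases are the same mouse at different probes. Chance sets a mouse apart in about 1 in 20 groups of independent, normally spread values. The groups here share mice, some probes move together and Fth1 values are coarse, so this rate is no yardstick for the 7 cases. Fth1 held 3 of them, each the highest of its group: B6 deficient mouse 5 at 18.21, next to 18.09, D2 balanced mouse 5 at 18.28, next to 18.06, and D2 deficient mouse 2 at 18.16, next to 18.02. Cp held D2 balanced mouse 5, the lowest at 14.80 with the next at 15.42, and D2 deficient mouse 2, the highest at 15.71 with the next at 15.59. Ncoa4 probe 1 held D2 balanced mouse 2, the highest at 13.83, and Ncoa4 probe 3 held B6 enriched mouse 3, the highest at 12.54. D2 balanced mouse 5 and D2 deficient mouse 2 each appear at both Fth1 and Cp.

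At Fth1 every B6 enriched mouse lay above its balanced mean and every D2 enriched mouse below its own, a difference of -0.25 in the enriched effect, D2 minus B6, whose test did not pass (adjusted p = 0.162), and -0.19 without D2 balanced mouse 5. With cyclic loess the enriched difference of Fth1 was 0.02 in B6 and -0.04 in D2. With 75th percentile scaling it was 0.02 in B6 and -0.13 in D2. At Cp every B6 deficient mouse lay below and every D2 deficient mouse above the balanced mean, a difference of 0.44 that did not pass either (adjusted p = 0.661), and 0.30 without D2 balanced mouse 5. The D2 balanced mice other than mouse 5, at 15.42 to 15.65 in Cp, overlapped the D2 deficient mice at 15.54 to 15.71.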

How the results depend on the processing

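No value changed its direction while past the threshold under any setting. Counts are of the 9 member probes that passed. Within scan day 2, 0 passed for the enriched diet averaged (4 as reported) and in B6 (3), 0 for the deficient diet averaged (3), 0 for enriched against deficient (7) and 2 for the strains (6). Within scan day 3 they were 2 for the enriched diet averaged and 4 in B6 (Cp added), 0 for the deficient diet, 3 for enriched against deficient and 6 for the strains, where Ftl2 and Cp were gained and Slc40a1 and Heph lost; in D2 alone 1 for the enriched and 3 for the deficient diet. In D2, cyclic loess gave 1 for the enriched diet and the methods' t-test 1 for the deficient diet, against 0. In B6 the single pass for the deficient diet became 0 with 75th percentile scaling, no normalization, no filter, slide as a block, either scan day, the compared groups alone and the methods' t-test. It was also 0 with 1 probe per gene, where the probe that passed, Ncoa4 probe 3, was not tested. Leaving out 1 array gave 0 to 1 for the enriched diet in D2 and 0 to 2 for the deficient diet in B6. The single scan days hold as few as 1 array of a group. On scan day 3 the only D2 balanced array was that of mouse 5, the highest of its group in Ftl2 and the lowest in Cp. No paired analysis was possible because the mouse numbers follow accession order and pair no samples. Signal over background limits Heph most, the dimmest member tested.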
